A study of Mus musculus with 6 samples.

Results

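The 32 genes described here encode enzymes and regulators of sterol and fatty acid synthesis, and they are 32 of 18193 genes measured in mouse plasma cells and B cells. They were taken by gene symbol from a list of the pathway, which was chosen with earlier results of these data known. The list holds 17 sterol enzymes (6 that make mevalonate into isoprenoids and 11 that make squalene and turn it into cholesterol), 9 fatty acid enzymes, 5 regulators of the pathway and the sterol carrier gene Stard4. All 32 were measured by at least 1 probe set that carries a single gene symbol, with 76 such probe sets in all, and each was represented by its brightest.

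Gene expression was measured on 6 arrays of sorted cells from mice of the C57BL/6 strain. The 3 arrays of plasma cells used B220- CD138+ cells of the bone marrow, collected 7 days after a boost with the protein antigen keyhole limpet hemocyanin (KLH), with magnetic bead enrichment before the sort and 50000 to 70000 cells per array. The 3 arrays of B cells used B220+ CD23+ spleen cells, 2000000 to 3000000 per array, described as naive. No gene alteration, sex or age is given for either group, and whether arrays of a group came from separate animals is not stated, so p-values measure only the spread between these arrays. Tissue, boost, enrichment and input differed together with the cell type and cannot be told apart from it.

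Cholesterol is built from acetyl-CoA through mevalonate and farnesyl diphosphate to squalene, which is closed to lanosterol and then trimmed to cholesterol in the endoplasmic reticulum (ER). Fatty acid synthesis starts from the same acetyl-CoA, made in the cytosol from citrate or acetate, and goes on through chain synthesis, elongation and desaturation. The sterol regulatory element-binding proteins (SREBPs), encoded by Srebf1 and Srebf2, switch on most of these genes. Scap carries them out of the ER when sterol is low, and the Insig proteins hold them there when sterol is high. Plasma cells hold an enlarged ER for antibody secretion, and its membranes need lipid.

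The arrays followed their labels: all 6 measured plasma cell markers were higher and all 6 measured B cell markers of 7 listed were lower in plasma cells. Summed intensities were 76110 to 78330 against 13014 to 13501 for the former, and 2847 to 3462 against 37361 to 43080 for the latter. B cell array 1 stood apart, with correlations of 0.934 and 0.926 with the other B cell arrays, which had 0.992 between them. Of the 32 genes 27 were lower on it than on both other B cell arrays, against 44.8% of all genes, and 3 were higher. Compared with the average of the other B cell arrays, their median log2 difference there was −0.48, against −0.01 over all genes. Markers of other cells were uneven too. Those of granulocytes (8 measured of 9) summed to 12591 on B cell array 1, 2779 and 1786 on arrays 2 and 3, and 8473 to 20037 in plasma cells. Erythroid markers (6 of 8) summed to 1529, 93.4 and 101 on the B cell arrays and 228 to 534 in plasma cells, and T and NK cell markers (11 of 11) to 10600.2, 7512 and 7780.3 and to 2015 to 3106. Cd2 alone made up most of the latter sum on B cell arrays 2 and 3, with 4717, 6953 and 7154 on the B cell arrays against 607 to 741 in plasma cells. Cd3e went from 1965 on B cell array 1 to 27.2 and 36.5 on arrays 2 and 3, with 175 to 502 in plasma cells, and Cd4 was higher in plasma cells, at 311 to 459 against 13.3 to 23.8. Sums for monocytes and macrophages (9 of 9) were 3757 to 5696 in B cells and 2084 to 2849 in plasma cells, for dendritic cells (5 of 6) 609 to 699 and 607 to 1252, and for stromal and endothelial cells (9 of 9, with Tie1 within background throughout) 322 to 766 and 746 to 879.9. Of the monocyte and macrophage markers 3 were called lower, among them Lyz2 (2529 to 4128 in B cells, 470 to 877 in plasma cells). The 1 called higher was Cd68 (284 to 340 and 1039 to 1135). Cdh5 made up most of the stromal and endothelial sum in plasma cells, at 426 to 539 against 80.5 to 115 in B cells. Adipocyte markers (6 of 8, with Retn within background throughout) summed to 116 to 246 in B cells and 155 to 314 in plasma cells. The X-inactivation RNA Xist had 8408 on B cell array 1, 30.8 and 18.1 on the remaining B cell arrays and 8070.4 to 8702 in plasma cells. When B cell array 1 is left out, sex therefore goes with cell type and cannot be told apart from it. The part of these differences in the results was not tested, and values without that array are given below for the counts and for the calls that it changes.

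The pathway did not move as a block between B cells and plasma cells. Of the 32 genes 10 were higher in plasma cells, 6 were lower and 16 were not called at an adjusted p of 0.05. Over all genes 17.6% were called higher and 12.3% lower. In these bulk samples fewer cells with a transcript and less transcript per cell cannot be told apart. The genes that rose were Fdps, Fdft1, Tm7sf2, Nsdhl, Sc5d, Dhcr7, Acss2, Scd2, Insig1 and Insig2, and those that fell were Pmvk, Idi1, Hsd17b7, Acaca, Scd1 and Stard4. At least 2-fold changes among the called genes numbered 7, namely Fdps, Nsdhl, Acss2 and Scd2 up and Acaca, Scd1 and Stard4 down, against 17.7% of all genes. All 3 plasma cell arrays lay above all B cell arrays for 12 of the 32 genes and below them for 8, against 25.4% and 22.4% of all genes. Without B cell array 1 the counts were 11 higher and 9 lower, beside 22.7% and 21.1% of all genes. The calls of Fdps, Nsdhl, Insig1, Scd2, Acaca and Scd1 held under all 16 alternative settings. Centring each array on its median moved the median of all genes by 0.12, from −0.06 to 0.06, and left 5 higher and 2 lower of the 32, beside 14.2% and 6.83% of all genes. The count of higher genes fell to 5 without plasma cell array 1, to 5 without plasma cell array 2 and to 6 without plasma cell array 3.

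**Figure D1:**
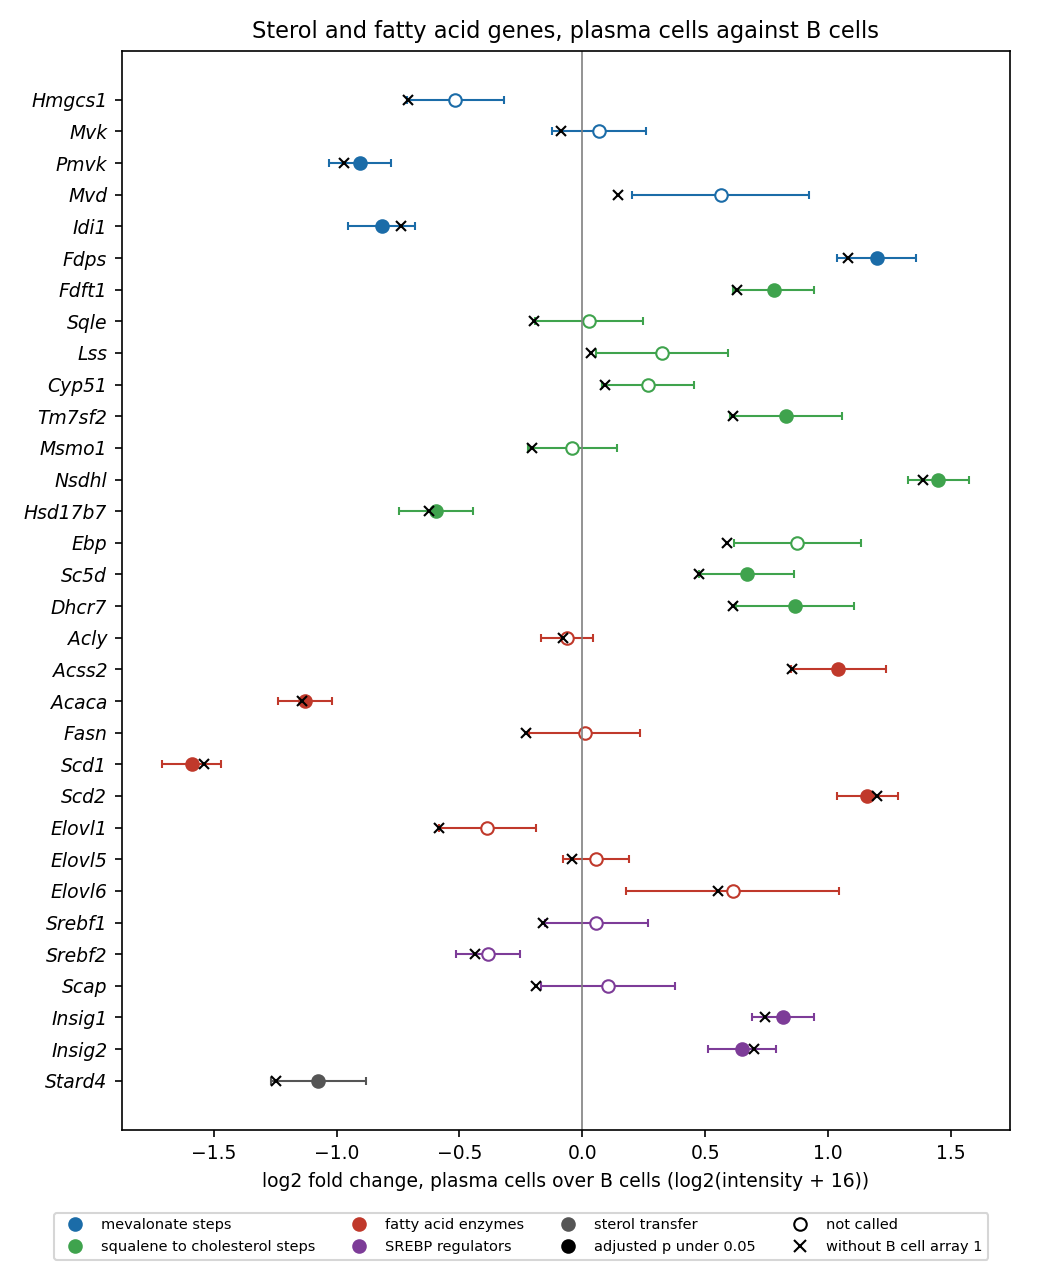
Log2 fold change of plasma cells over B cells for the 32 genes, on log2(intensity + 16), with the standard error of the fit as bars and pathway step as colour. Filled points passed an adjusted p of 0.05 and crosses give the value without B cell array 1. Nsdhl lies farthest to the right at 1.45 and Scd1 farthest to the left at −1.59.

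**Figure D2:**
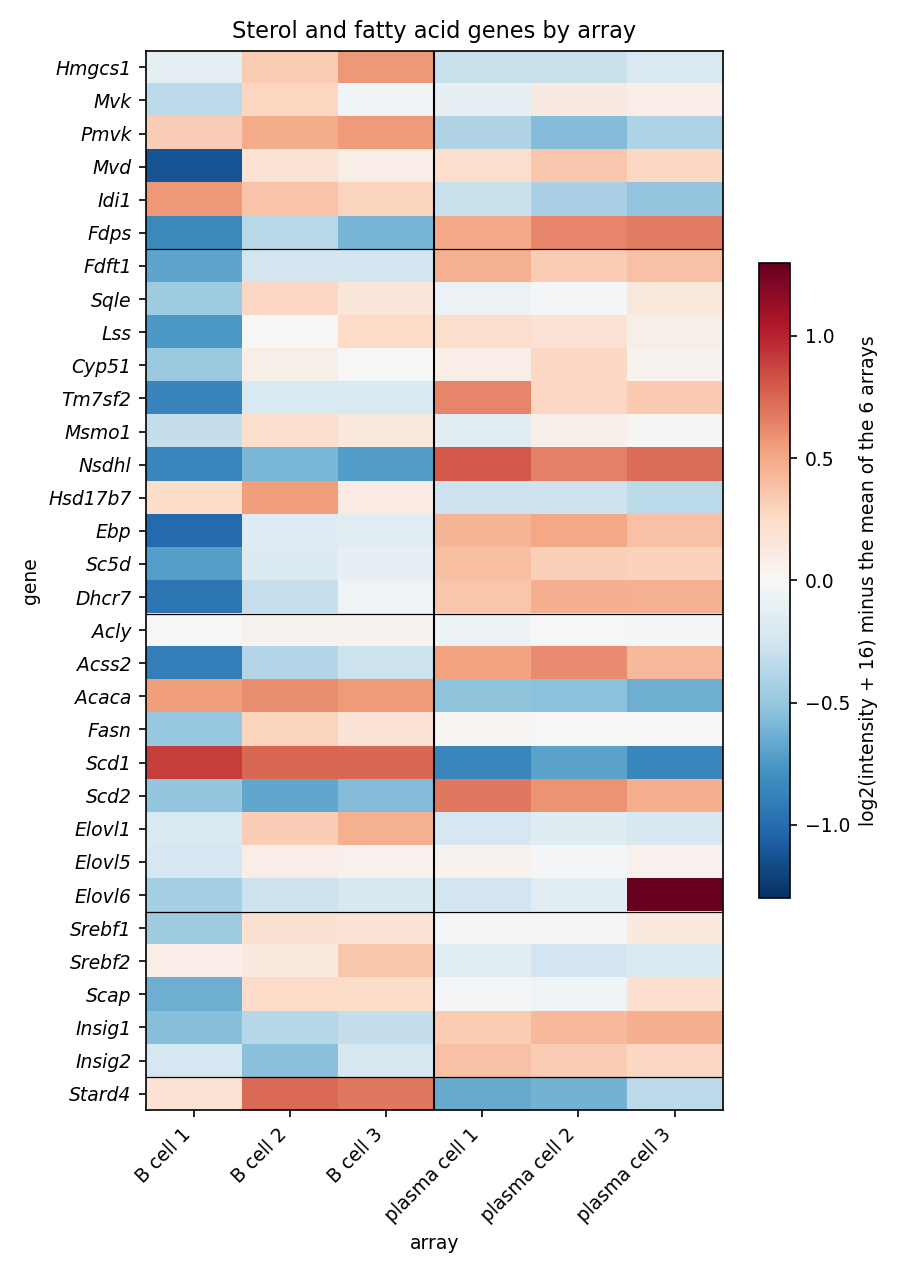
Log2(intensity + 16) of each of the 32 genes on each of the 6 arrays, minus the gene's mean over the arrays, with lines between the pathway steps. B cell array 1 is lower than both other B cell arrays in 27 of the 32 rows, and the rows of Scd1, Acaca and Nsdhl split by group.

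Promoter sequence is shown for 4 genes that ended on different sides of the comparison. Hmgcs1, the first enzyme of the mevalonate part, was not called at its brightest probe set, though its other probe sets were called lower. Idi1 fell, and Nsdhl and Insig1 rose. Each sequence is the 250 bases before the RefSeq transcription start on build GRCm38.p6, read along the strand of the gene, all on the plus strand. Capitals mark CCAAT or its reverse complement ATTGG, the box bound by NF-Y, a factor known to act with SREBPs. In Hmgcs1 they also mark a sterol regulatory element.
Hmgcs1, chr13:119690101-119690350: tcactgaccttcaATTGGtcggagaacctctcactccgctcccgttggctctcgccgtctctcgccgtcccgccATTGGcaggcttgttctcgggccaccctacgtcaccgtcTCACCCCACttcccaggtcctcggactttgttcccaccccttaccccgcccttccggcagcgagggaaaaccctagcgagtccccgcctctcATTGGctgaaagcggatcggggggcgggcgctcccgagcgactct
Idi1, chr13:8885356-8885605: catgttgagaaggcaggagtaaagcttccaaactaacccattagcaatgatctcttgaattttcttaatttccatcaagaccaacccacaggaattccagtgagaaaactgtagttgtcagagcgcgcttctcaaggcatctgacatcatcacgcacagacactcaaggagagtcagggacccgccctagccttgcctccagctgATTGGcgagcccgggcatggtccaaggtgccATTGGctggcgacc
Nsdhl, chrX:72918271-72918520: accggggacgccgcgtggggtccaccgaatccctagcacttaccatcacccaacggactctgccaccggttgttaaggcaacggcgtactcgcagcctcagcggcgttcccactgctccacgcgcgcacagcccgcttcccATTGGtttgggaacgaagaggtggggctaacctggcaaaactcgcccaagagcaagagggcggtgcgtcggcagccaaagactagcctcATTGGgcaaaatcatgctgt
Insig1, chr5:28071162-28071411: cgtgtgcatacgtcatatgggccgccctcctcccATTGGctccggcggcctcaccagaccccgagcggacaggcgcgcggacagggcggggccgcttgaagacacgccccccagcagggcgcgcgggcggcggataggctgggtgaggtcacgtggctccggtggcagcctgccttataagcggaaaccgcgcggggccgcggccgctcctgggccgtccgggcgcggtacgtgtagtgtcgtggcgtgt

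In Hmgcs1 the match TCACCCCAC begins 137 bases before the start. Promoters were found for 26 of the 32 genes, and none were used for Fdps, Fdft1, Sqle, Scd1, Scd2 and Stard4. On either strand CCAAT stood in at least 1 window of 22 of these 26 genes, against 37.5% of 27025 genes with a promoter, and in 23 of their 35 windows, against 33.8% of 32851 windows. Of the 22 genes 7 rose, 3 fell and 12 were not called, so the box was found on all sides of the comparison. The sterol regulatory element spelled TCACNCCAC, where N is any base, stood in Hmgcs1 alone of the 26, against 1.22% of genes. The E-box CACGTG stood in 6 of the 26 genes, against 6.86% of genes, and TGACGTG, the core of elements bound by XBP1 and ATF6, in 0 of 26 against 1.85%. CACGTG and TGACGTG have the letters ACGTG in common but differ in the base before them. A match is a run of letters, not a bound site.

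The early steps, from HMG-CoA synthase to farnesyl diphosphate, went both ways. Of their 6 genes 1 rose and 2 fell, beside 17.6% and 12.3% of all genes, with a median log2 fold change of −0.22. With median centring 1 rose and 0 fell, beside 14.2% and 6.83% of all genes. Without B cell array 1 the counts were 1 and 3, beside 22.7% and 21.1% of all genes, and the median was −0.40. Pmvk, phosphomevalonate kinase, had intensities of 1418, 1581 and 1664 on B cell arrays 1 to 3 and 858, 757 and 851.5 on plasma cell arrays 1 to 3. All plasma cell arrays lay below all B cell arrays, with a log2 fold change of −0.90 ± 0.13 (SE) and an adjusted p of 0.00329. Idi1, which isomerises isopentenyl diphosphate, had 1037, 901 and 856 in B cells and 564, 516 and 482 in plasma cells. It too fell without overlap, by −0.82 ± 0.13 on the log2 scale (adjusted p = 0.00615). Its dimmer probe set had −0.52 with overlapping arrays and was not called. Both falls lost their call only with median centring, at an adjusted p of 0.0696 for Pmvk and 0.0646 for Idi1, against lowest values of 0.000172 and 0.000588. Fdps, farnesyl diphosphate synthase, closes this part of the pathway and feeds both sterols and prenyl lipids. Its intensities were 475, 669 and 561 in B cells and 1214, 1345 and 1385 in plasma cells. Every plasma cell array was above every B cell array, and the rise was 1.20 ± 0.16 (adjusted p = 0.00277, and 0.000411 to 0.0217 over the alternatives).

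Hmgcs1, HMG-CoA synthase, was at 3673, 5053 and 5934 in B cells and at 3265, 3279 and 3501 in plasma cells. The plasma cell arrays were all lower, but B cell array 1 came close to them, and the log2 fold change of −0.52 ± 0.20 was not called (adjusted p = 0.107). Its 4 other probe sets were each called lower when every probe set was tested, with log2 fold changes of −0.55, −0.63, −0.64 and −1.52. Without B cell array 1 the value of the brightest was −0.71 and was called (adjusted p = 0.00559, with 0.00205 to 0.446 over the alternatives). Mvk, mevalonate kinase, had 113, 182 and 143 in B cells and 136, 161 and 158 in plasma cells, so the groups overlapped (0.07 ± 0.19). Mvd, which decarboxylates mevalonate diphosphate, had 86.0, 237 and 218 in B cells and 243, 266 and 251.3 in plasma cells, with B cell array 1 far below the rest. Its log2 fold change of 0.56 ± 0.36 was not called and was 0.15 without B cell array 1.

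Among the late steps, from squalene synthase to cholesterol, more genes rose than fell. Of their 11 genes 5 rose and 1 fell, beside 17.6% and 12.3% of all genes. Their median log2 fold change was 0.67. Without B cell array 1 it was 0.48, with 6 higher and 1 lower, beside 22.7% and 21.1% of all genes. With median centring the counts were 1 and 0, beside 14.2% and 6.83% of all genes. Nsdhl, which removes a carbon of the sterol ring system, had 374, 449 and 409 in B cells and 1208, 1089 and 1146 in plasma cells. The groups were far apart, and its log2 fold change of 1.45 ± 0.13 (adjusted p = 0.000541) was the highest of the 32. Nsdhl and Ebp are X-linked. B cell array 1, with its high Xist, was the lowest array of both genes. It was also below both other B cell arrays for 15 of the 17 sterol enzymes. The part of sex in the values of Nsdhl and Ebp was not tested. Ebp, the sterol isomerase of the late pathway, was at 1234, 2228 and 2283 in B cells and 3402, 3548 and 3257 in plasma cells. Its arrays did not overlap and its log2 fold change was 0.88 ± 0.26, but its adjusted p was 0.0502. It was called without B cell array 1, at 0.59 (adjusted p = 0.00479, with 0.00238 to 0.143 over the alternatives).

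Fdft1, squalene synthase, commits farnesyl diphosphate to sterols. It had 493, 676 and 677 in B cells and 1114, 1010.1 and 1047 in plasma cells (0.78 ± 0.16, adjusted p = 0.0156). Dhcr7, which makes cholesterol from 7-dehydrocholesterol, was at 1601, 2501 and 2963 in B cells and 3963, 4297 and 4264 in plasma cells (0.87 ± 0.24, adjusted p = 0.0414). Tm7sf2, a sterol reductase, was at 184, 299 and 299.9 in B cells and 547, 419 and 443 in plasma cells (0.83 ± 0.23, adjusted p = 0.0392). In each of these genes all plasma cell arrays exceeded all B cell arrays and B cell array 1 was the lowest. Sc5d, a sterol desaturase, had 399, 587 and 621 in B cells and 882, 833 and 825 in plasma cells (0.67 ± 0.19, adjusted p = 0.0454). Its 2 dimmer probe sets had −0.18 and −0.25 and were not called, the latter over background on 1 of 6 arrays, so the rise rests on the brightest. Hsd17b7, a ketosteroid reductase of the pathway, was the late gene that fell, from 308, 386 and 281 in B cells to 212, 212 and 200.3 in plasma cells (−0.59 ± 0.15, adjusted p = 0.0302), with −1.09 (over background on 3 of 6 arrays), −0.73 and −0.00 at its dimmer probe sets.

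These late calls were close to the threshold. Without 1 array at a time Fdft1 was lost without any of the 3 plasma cell arrays (adjusted p 0.0535 to 0.0689), Dhcr7 without those or B cell array 2 (0.0855 to 0.124), and Hsd17b7 without the same 4 arrays (0.0767 to 0.0970). Tm7sf2 (0.0604 to 0.133) and Sc5d (0.0541 to 0.142) were lost without any array except B cell array 1. Counting every alternative, the adjusted p reached 0.0982 for Fdft1, 0.124 for Dhcr7, 0.133 for Tm7sf2, 0.735 for Sc5d and 0.260 for Hsd17b7, and their lowest values lay between 0.000869 and 0.00526. The rest of the late enzymes were not called. Sqle, squalene epoxidase, a controlled step of the pathway, was at 340, 572 and 528 in B cells and 448, 467 and 520.1 in plasma cells, with a log2 fold change of 0.03 ± 0.22. Lss, which closes the ring (0.32 ± 0.27, and 0.03 without B cell array 1), Cyp51, which removes a methyl group of lanosterol (0.27 ± 0.19), and Msmo1, a sterol methyl oxidase (−0.04 ± 0.18), likewise had overlapping arrays. A second probe set of Msmo1 was called lower at −1.40, from 820.4, 433 and 471 to 157, 207 and 241, so its value depends on the probe set.

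**Figure D3:**
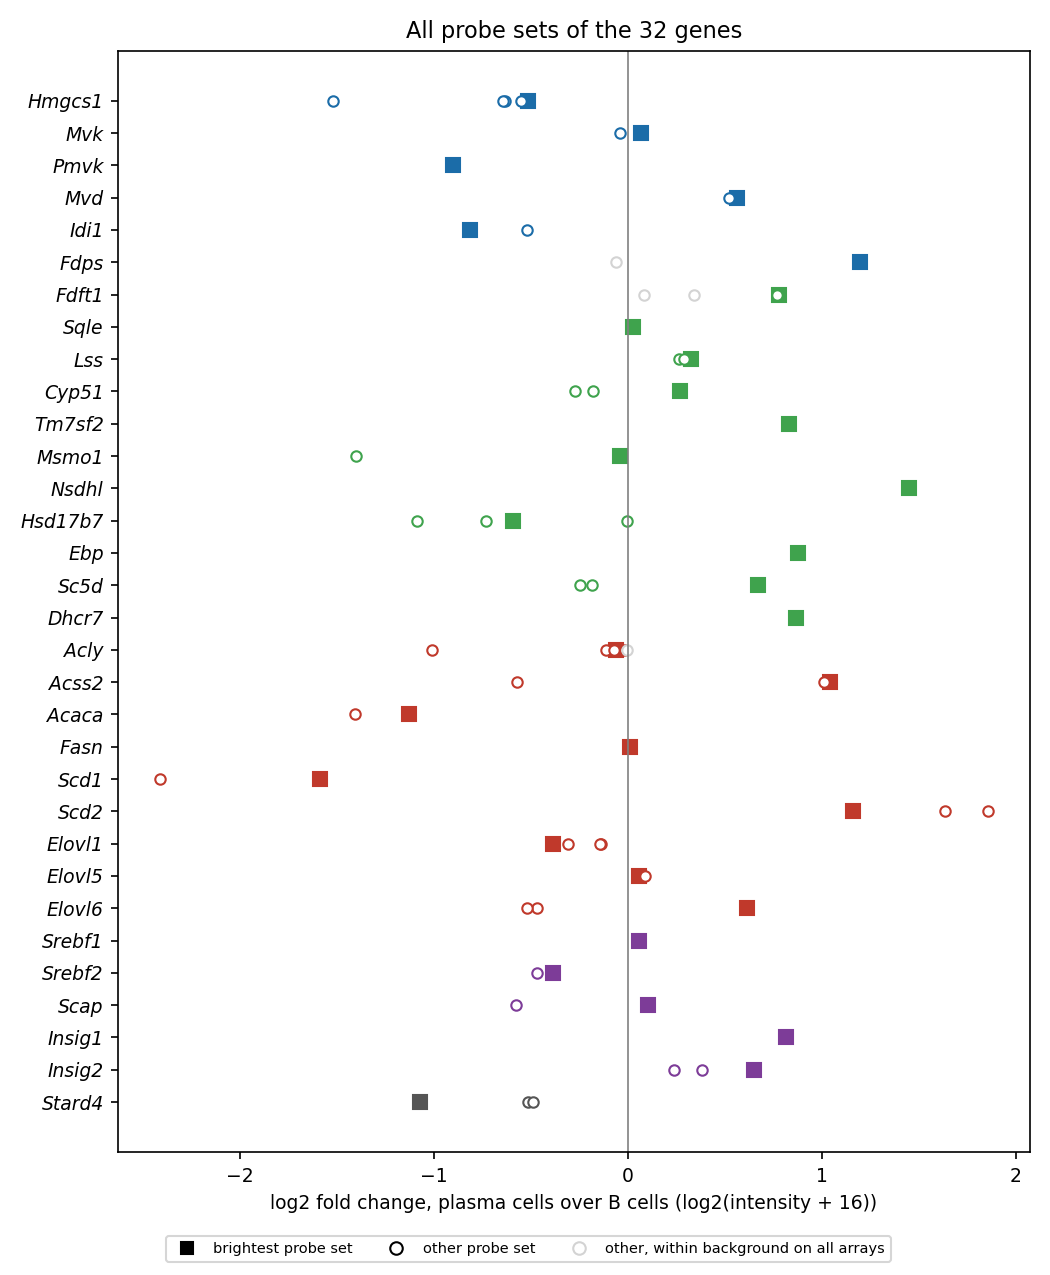
Log2 fold change of plasma cells over B cells, on log2(intensity + 16), for all 76 probe sets of the 32 genes, with squares for the brightest probe set of each gene and open circles for the others. The 5 probe sets of Hmgcs1 and the 3 of Scd2 lie on the same side of 0, while those of Sc5d, Acss2 and Elovl6 lie on both.

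Fatty acid synthesis changed at single steps. Of 9 enzymes 2 rose and 2 fell, beside 17.6% and 12.3% of all genes, and these 4 changes were each at least 2-fold. The median log2 fold change was 0.01 (−0.06 with quantile normalization). Without B cell array 1 the counts were 2 and 3, beside 22.7% and 21.1% of all genes. Acaca, acetyl-CoA carboxylase, makes the malonyl-CoA that commits carbon to fatty acids. It had 880.5, 920.4 and 889 in B cells and 413, 411 and 381 in plasma cells. The groups were well apart, and the fall was −1.13 ± 0.11 on the log2 scale (adjusted p = 0.000836). A dimmer probe set was called lower too, at −1.41. Acss2, which makes acetyl-CoA from acetate, moved the other way, from 308, 449 and 482 to 855, 909 and 796 (1.04 ± 0.19, adjusted p = 0.00977). A second probe set gave 1.01, whereas the dimmest, at 43.7 to 88.9 over the arrays, was called lower at −0.57. With all 3 averaged Acss2 was not called (adjusted p = 0.0596, and 0.000311 to 0.0596 over the alternatives).

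The enzymes that supply acetyl-CoA from citrate and build the chain were not called. Acly, the citrate lyase, was at 7333, 7599.9 and 7609.6 in B cells and 7041, 7335 and 7213 in plasma cells, with a log2 fold change of −0.06 ± 0.11. A dimmer probe set of Acly was called lower at −1.01. Fasn, the fatty acid synthase, was at 721, 1251 and 1153 in B cells and 1037, 1012 and 1015 in plasma cells (0.01 ± 0.23). The plasma cell arrays of Fasn lay within the range of the B cell arrays. Of the elongases Elovl5, which acts on polyunsaturated chains, had 0.06 ± 0.13 and Elovl1, which acts on very long chains, −0.39 ± 0.20. Elovl1 was called lower without B cell array 1, at −0.58 (adjusted p = 0.00565, with 0.00277 to 0.651 over the alternatives). Elovl6, the elongase of palmitate, was at 88.7, 99.8 and 106 in B cells and at 102, 111 and 336 in plasma cells. Plasma cell array 3 alone was high, and the log2 fold change of 0.61 ± 0.43 was 0.10 without it. That array also had the highest T and NK cell marker sum of the plasma cell arrays, 3106 against 2015 and 2109. Its dendritic cell marker sum was the highest of them too, 1252 against 1068 and 607. B cell array 1 had a higher T and NK cell sum, 10600.2, and the lowest Elovl6 of the 6 arrays. The part of other cells in the value was not tested.

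The stearoyl-CoA desaturases, which put the first double bond into saturated chains, moved in opposite directions. Scd1 had 14259, 12827 and 12815 in B cells and 4254, 4719 and 4245 in plasma cells. It fell by 1.59 on the log2 scale (SE 0.12, adjusted p = 0.000335), the largest fall of the 32 genes, and its second probe set fell by 2.42. Its B cell values lay midway between 0 and the highest intensities of the arrays, 25764 to 26749. Scd2, its close relative, had 2799, 2469 and 2677 in B cells and 6369, 5938 and 5508 in plasma cells. All plasma cell arrays were above all B cell arrays (1.16 ± 0.12, adjusted p = 0.00115), and the other 2 probe sets gave 1.64 and 1.86. Both calls held under all 16 alternatives, with adjusted p up to 0.00685 for Scd1 and 0.0121 for Scd2. The desaturases that make polyunsaturated chains are not among the 32 genes but were on a list of related genes. Fads2, which takes the first step, was at 47.7, 44.1 and 27.2 in B cells and 1234, 1180.4 and 1891 in plasma cells (4.69 ± 0.25, adjusted p = 0.00011). Fads1, which acts later, was at 20.7, 27.3 and 25.7 and at 265, 240.3 and 334 (2.86 ± 0.16, adjusted p = 0.000129). It lay over background on 2 of 3 B cell arrays, so its fold depends on the added constant, and a dimmer probe set had 0.19. Fads3 was within background on all 3 B cell arrays and at 563, 507 and 559 in plasma cells, at least 18.9-fold higher (adjusted p = 0.000172).

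**Figure D4:**
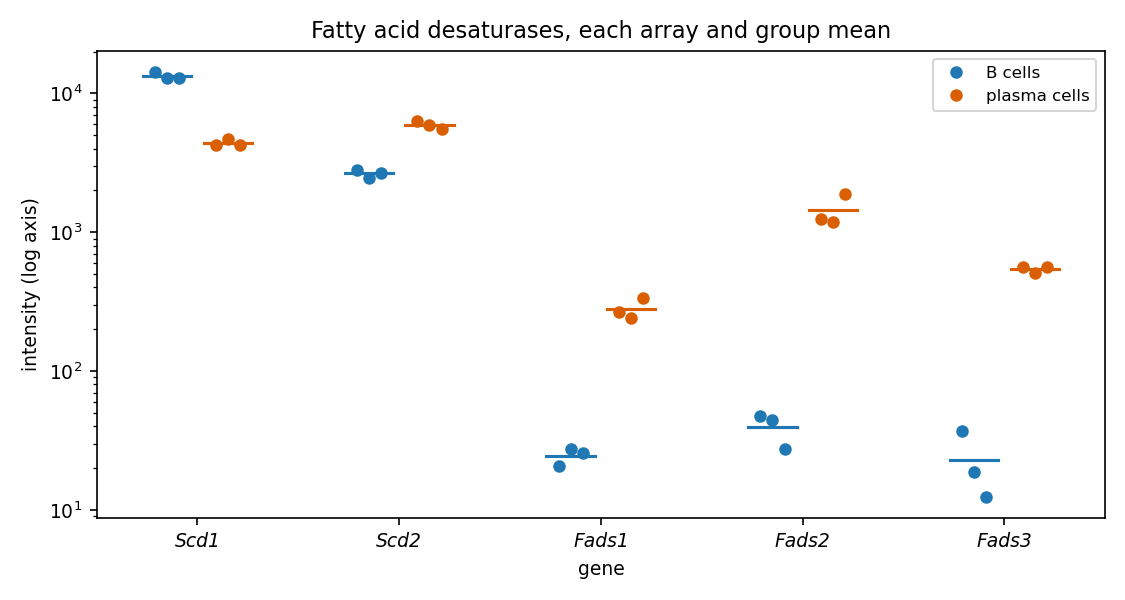
Intensity of the brightest probe set of 5 fatty acid desaturases on each array (points, log axis), with the group mean as a line, B cells in blue and plasma cells in orange. Scd1 is lower in plasma cells, at 4245 to 4719 against 12815 to 14259, whereas Scd2, Fads1, Fads2 and Fads3 are higher on every plasma cell array.

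Set side by side, 6 of 17 sterol enzymes rose and 3 fell, and 2 of 9 fatty acid enzymes rose and 2 fell. The sterol counts were 2 and 0 with median centring and 7 and 4 without B cell array 1. Of all genes 17.6% were called higher and 12.3% lower. These shares were 14.2% and 6.83% with median centring and 22.7% and 21.1% without B cell array 1. The median log2 fold change was 0.32 for the sterol enzymes and 0.01 for the fatty acid enzymes, beside −0.06 over all genes. Without B cell array 1 the medians were 0.09, −0.08 and 0.01, and with the mean of all probe sets the sterol median was 0.08. The spread of the per-array medians within groups was 0.19 (SD) for the sterol enzymes and 0.25 for the fatty acid enzymes. The difference between the branches was not tested. The count of sterol enzymes that rose went from 6 to 3 without B cell array 2 and to 2 without any 1 of the plasma cell arrays.

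Among the regulators the Insig genes rose and the SREBP genes did not. Insig1, which retains the SREBP carrier in the ER, had 4057, 4606 and 4814 in B cells and 7476, 7999.9 and 8256 in plasma cells. The groups were apart by more than their spread (0.82 ± 0.13, adjusted p = 0.0047). Insig2, its relative, was at 1047, 839 and 1056 in B cells and 1598, 1542 and 1483 in plasma cells (0.65 ± 0.14, adjusted p = 0.0163). It missed the threshold when plasma cell array 1 (adjusted p = 0.0733) or plasma cell array 2 (0.0658) was left out, and the range over the alternatives was 0.00123 to 0.0733. Its dimmer probe sets had 0.24 and 0.38. Srebf2, the SREBP gene most tied to sterol synthesis, was at 4158, 4285 and 5056 in B cells and 3549, 3308 and 3442 in plasma cells. Every plasma cell array was lower, yet the log2 fold change of −0.38 ± 0.13 was not called (adjusted p = 0.0738). It was called without B cell array 1, at −0.44 (adjusted p = 0.027, with 0.0167 to 0.547 over the alternatives). Srebf1, most tied to fatty acid synthesis, was at 615, 981 and 965 in B cells and 842, 839 and 933 in plasma cells (0.06 ± 0.21). Scap was at 1304, 2425 and 2403 and at 2018, 1969 and 2383 (0.10 ± 0.27), again with overlap, and a dimmer probe set had −0.58.

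Stard4, a soluble carrier of sterol between membranes, fell. It was at 726, 1067 and 1027 in B cells and 396, 409 and 496 in plasma cells, with no overlap (−1.07 ± 0.19, adjusted p = 0.0087). Median centring ended the call (adjusted p = 0.0613, with 0.000115 to 0.0613 over the alternatives). Its other 2 probe sets had −0.49 and −0.51, and the former was called. Of the proteases and degradation factors that act on SREBPs and sterol enzymes, 8 of 10 listed were measured. Of these 1 rose and 2 fell, beside 17.6% and 12.3% of all genes. Without B cell array 1 the counts were 1 and 5, beside 22.7% and 21.1% of all genes. With median centring they were 0 and 0, beside 14.2% and 6.83% of all genes. Erlin2 rose (0.51 ± 0.13, adjusted p = 0.0333), and Erlin1 (−0.69 ± 0.14, 0.0133) and the ubiquitin ligase gene Rnf145 (−0.53 ± 0.13, 0.0233) fell. Erlin1 and Erlin2 encode partners in an ER complex. These 3 calls were each lost without at least 4 of the 6 arrays in turn. The adjusted p was 0.0514 to 0.0619 for Erlin1 (B cell arrays 2 and 3, plasma cell arrays 2 and 3), 0.0757 to 0.129 for Erlin2 (B cell arrays 2 and 3, plasma cell arrays 1 and 2) and 0.0652 to 0.0795 for Rnf145 (all but B cell array 1). The highest values under any alternative were 0.197, 0.148 and 0.322, and the lowest 0.00048, 0.00396 and 0.00275. The protease genes Mbtps1 (−0.29) and Mbtps2 (0.28) were not called.

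Other branches that draw on the same precursors are given for comparison. Downstream of farnesyl diphosphate 6 of 16 measured genes of isoprenoid use and prenylation rose and 0 fell, with a median of −0.12, beside 17.6% and 12.3% of all genes. Without B cell array 1 the counts were 6 and 4, beside 22.7% and 21.1% of all genes. With median centring they were 3 and 0, beside 14.2% and 6.83% of all genes. Dhdds, a subunit of the enzyme that builds the dolichol chain for N-glycosylation, led with 682, 798 and 865 in B cells and 2911, 3034 and 2809 in plasma cells (1.88 ± 0.13, adjusted p = 0.000281). Dolk, dolichol kinase, rose by 0.97 ± 0.11 (adjusted p = 0.00124), and the farnesyltransferase subunit gene Fntb by 1.02 ± 0.29 (0.0431). The call of Fntb was lost without any array except B cell array 1 (0.0556 to 0.139, and from 0.005 to 0.139 over all alternatives). The other 3 were Nus1, Pdss2 and Rabggtb, chosen after their values were seen. The log2 fold change of Pdss2 was 0.82 and ranged from −0.35 to 0.93 over the alternatives, so its direction was not kept under all of them. Of 27 measured genes of fatty acid supply, elongation and desaturation outside the 32, 8 rose and 1 fell, with a median of 0.19. Without B cell array 1 the counts were 12 and 3, and with median centring 6 and 0. Beside these stand 17.6% and 12.3% of all genes in the main fit, 22.7% and 21.1% without that array and 14.2% and 6.83% with centring. Besides the Fads genes those that rose were Slc25a1, Me1, Tecr, Hacd3 and Mlx, chosen after their values were seen. Mlxip, a glucose-sensing factor, fell by 0.65 (SE 0.14, adjusted p = 0.0158). Its call was lost without B cell array 2 or 3 or plasma cell array 1 or 2 (0.0565 to 0.0733, and 0.00118 to 0.193 over all alternatives). Of 4 measured sterol enzymes outside the 32, of 8 listed, limma called 0 at an adjusted p of 0.05, and 1 was lower without B cell array 1.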

How the data were processed

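Expression was measured on 6 one-colour Affymetrix arrays, 3 of plasma cells and 3 of B cells. Per the labels, total RNA was amplified with NuGEN Ovation V2 and labelled with biotin. Deposited values are linear intensities of each probe set. The authors' summarisation and normalization steps are not given in the sources used here.

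Of 45101 probe sets, 34945 carried 1 gene symbol in the platform annotation of 2016, 932 several and 9160 none here. Symbols were updated by Entrez identifier through RefSeq (GRCm38.p6), where 34741 matched. Each of 18193 genes took its brightest probe set. Values were transformed as log2(intensity + 16), and folds are on that scale. Groups were compared with limma 3.58.1 in R 4.3.3, p-values being adjusted by Benjamini-Hochberg across the 18193 genes, with 0.05 as threshold. Background is the 95th percentile of 27 bacterial control probe sets, 23.0 to 41.8 on the 6 arrays. A gene within it on all arrays of a group gets a bound, computed from log2 intensities without the constant and with dim values set to the percentile. On simulated data for plasma cells against B cells (18193 genes), 48 of 50 genes changed 8-fold were recovered, 39 at 4-fold, 17 at 2-fold and 0 at 1.5-fold, with 6 calls among 17993 unchanged genes. In the data far more genes were called, 17.6% higher and 12.3% lower, which changes the adjusted p. The recovery rates therefore need not hold for the data. The 32 genes and the lists were chosen with earlier results of these data known. Named genes are the 32, and up to 3 called genes in each direction of each related list. Others were named after their values were seen, among them Mbtps1, Mbtps2, Cd2, Cd3e, Cd4, Lyz2, Cd68 and Cdh5. The number of arrays limits the precision. Alternatives covered the added constant, scaling, dim genes, probe sets, variance model, array weights, a replicate block and leaving out each array.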

Additional observations from a re-analysis of the deposited data

How the results depend on the processing

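All 16 called genes of the 32 kept their direction under all 16 alternatives, and 6 kept their call under all of them. Leaving out 1 array at a time gave 5 to 11 higher and 5 to 9 lower genes of the 32, 2 to 7 higher sterol enzymes, a sterol median of 0.0943 to 0.533, and 1347 to 3830 lower genes over all genes. Median centring raised the median log2 fold change of all genes by 0.12, from −0.06 to 0.06, and left 5 higher and 2 lower genes of the 32, 2 higher sterol enzymes and 1243 lower genes over all. A pseudocount of 1 left 3 higher sterol enzymes. With the mean of all probe sets 1 fatty acid enzyme was higher and the sterol median was 0.0787. Array weights, which gave B cell array 1 a weight of 0.0938, yielded 4840 higher and 4654 lower genes over all and a sterol median of 0.13. The causes of these shifts were not tested. With the replicate number as a block 5 of the 32 genes were higher, 5 lower, and 2 sterol enzymes higher. The labels do not say that the numbers pair the samples. Same-numbered arrays had correlations of deviations of 0.05, 0.01 and 0.05, with B cell array 2 closer to plasma cell array 3 (0.03). Deviations from the means of so few arrays cannot decide whether the samples were paired.

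Among the 32 genes directions turned only in those that were not called. With array weights log2 fold changes were −0.19 for Mvk, −0.24 for Sqle, −0.24 for Fasn, −0.0462 for Elovl5, −0.17 for Srebf1 and −0.21 for Scap. With the mean of all probe sets they were −0.0626 for Cyp51, −0.13 for Elovl6 and −0.24 for Scap. Median centring gave 0.0768 for Msmo1 and 0.0551 for Acly, and quantile normalization 0.0398 for Msmo1 and −0.0593 for Elovl5. Leaving out 1 array gave −0.0860 to 0.226 for Mvk, −0.196 to 0.167 for Sqle, −0.205 to 0.0634 for Msmo1, −0.231 to 0.160 for Fasn, −0.0418 to 0.114 for Elovl5, −0.159 to 0.172 for Srebf1 and −0.189 to 0.255 for Scap. The negative values came without B cell array 1, and for Sqle also without plasma cell array 3 (−0.0324), except that Msmo1, negative with all arrays, turned positive without B cell array 2 or 3 or plasma cell array 1.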

Other observations

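Transcripts of genes that handle cholesterol went both ways between the cell types. Of 24 measured genes of sterol transport, esters and oxysterols 4 rose and 7 fell in plasma cells (3 and 3 with median centring), with a median log2 fold change of −0.19. Without B cell array 1 they were 6 and 7 with a median of −0.02. The counts stand beside 17.6% and 12.3% of all genes in the main fit. These shares were 14.2% and 6.83% with centring and 22.7% and 21.1% without that array. Cyp27a1, which makes an oxysterol from cholesterol, fell most, from 939, 1247 and 1161 on B cell arrays 1 to 3 to 194, 124 and 162 on plasma cell arrays 1 to 3 (−2.69 ± 0.20 SE, limma adjusted p = 0.000318). A dimmer probe set had 0.20, and with the mean of all probe sets the log2 fold change of Cyp27a1 was −1.25. The Gramd1 genes, whose proteins carry cholesterol from the plasma membrane to the ER, split. Gramd1a fell by 1.45 (adjusted p = 0.00948), Gramd1b by 1.61 (0.0349) and Gramd1c rose by 2.05 ± 0.33 (0.00598). B cell array 1 was the lowest B cell array of all 3. The call of Gramd1b was lost without any array except B cell array 1 (0.0806 to 0.116, and 0.000101 to 0.116 over all alternatives). A dimmer probe set of Gramd1b, over background on all 6 arrays, had −0.20 and was not called. Npc2, a lysosomal sterol carrier, rose by 1.08 ± 0.11 (0.000975), and Stard5 by 0.99 ± 0.18 (0.00896), a call that was lost without probe sets of the suffixes x and s (0.133, and 0.000713 to 0.133 over all alternatives).

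Genes of fatty acid storage and oxidation are given beside the same 17.6% and 12.3% of all genes. Those shares were 22.7% and 21.1% without B cell array 1 and 14.2% and 6.83% with median centring. Of 20 measured genes of activation and storage 6 rose and 0 fell, or 9 and 4 without B cell array 1. The brightest probe set of Mgll, which splits monoglycerides, was within background on all B cell arrays and at 2220, 2110.2 and 2141 in plasma cells, at least 75.2-fold higher (adjusted p = 3.25e-05). Of its dimmer probe sets, those with log2 fold changes of 4.42 and 1.17 were over background on 5 of 6 arrays, and that with 1.01 on 1. The transporter gene Slc27a1 rose by 1.22 ± 0.18 (0.00423) and the phosphatidate phosphatase gene Lpin2 by 1.12 ± 0.12 (0.00111). Of 21 measured genes of oxidation 7 rose and 1 fell, or 8 and 3 without B cell array 1 and 4 and 1 with median centring. Those that pass electrons on from it included Etfb with 1.22 ± 0.13 (0.00121) and Etfa with 0.88 ± 0.15 (0.0075). Ehhadh, of peroxisomes, rose by 1.19 ± 0.29 (0.0254), a call lost without B cell array 3 or any plasma cell array (0.0525 to 0.0855, and 0.00149 to 0.0855 over all alternatives). The brightest probe set of Ppargc1a, a coactivator of mitochondrial genes, was at 756, 180.5 and 189.5 in B cells and within background on all plasma cell arrays, at least 9.70-fold lower (0.00965). Another probe set of Ppargc1a was over background on all 6 arrays and had −0.73, which was not called, so the bound is that of the brightest. At the brightest B cell array 1 was far above the others, and without it the fitted log2 fold change was −2.49 in place of −3.14.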
